A study of Chlamydomonas reinhardtii with 15 samples.

Results

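SLT1, SLT2 and SLT3 are transcript models of the green alga Chlamydomonas reinhardtii that the study's tables annotate as sodium/sulfate co-transporters. Their probes were found by model number, using the pairs of model and symbol in those tables, which gave model 205507 for SLT1, 205506 for SLT2 and 205505 for SLT3. The members are therefore 3 of 14557 models on the array and 9 of its 43687 gene probes, with 3 probes for each gene. No measured value entered this choice, but the study had listed the 3 genes from these same arrays, so their response is not independent evidence. All 9 probes passed the filter on dim probes, and each was well above background in at least 1 channel on all 15 arrays.

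Each array compared Cy5-labelled RNA of a sulfur-starved culture, read in red, with Cy3-labelled RNA of the same strain at 0 h, read in green. The 0 h cells were in early stationary phase in acetate medium (TAP), and the starved cells had been washed and kept in that medium without sulfur under constant light for 24, 48, 72 or 96 h. The strains were npq4, the wild type 4A+ that served as its control, and the wild types cc125 and cc3491, with 4 arrays each except npq4, which had 3 (24, 48 and 96 h). The mutant npq4 came from insertional mutagenesis and lacks the LHCSR3 genes, which encode stress-related chlorophyll-binding proteins, and all 3 LHCSR3 probes were below the detection limit in both channels on its 3 arrays. In 4A+ probe 1 was detected on all 4 arrays and probe 2 on 3 of 4. Probe 3 was detected on 0 of 4, so it does not tell npq4 from 4A+. Biological samples were pooled before labelling and each strain and time point had 1 array, so the arrays of a strain were used as its replicates although they are time points of pooled RNA. The spread between separate cultures was not measured, and the 0 h RNA of a strain was the same on each of its arrays. Each strain was hybridised on 1 of 4 slides, so that strain and slide cannot be told apart.

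Sulfate is the usual sulfur source of algae and has to be carried across the plasma membrane before it can be reduced and built into cysteine. In Chlamydomonas the Na+/sulfate transporters SLT1 and SLT2, together with the H+/sulfate transporter SULTR2, make up the uptake system that appears at the plasma membrane when external sulfate runs out. Starved cells also secrete arylsulfatases, which free sulfate from organic esters, and replace cell wall proteins by forms poor in sulfur amino acids. None of the files used here holds the sequence of an SLT probe, so a binding of these probes to other transcripts was not tested.

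A ratio is given throughout as log2 of red over green, after background correction with an offset of 50 and loess normalization, so that a positive ratio means more transcript in starved cells. A probe was called when the Holm adjusted p of limma over 32076 tested probes was below 0.05 and its change was at least 2-fold. Detection differed between the slides. Between 8729 and 12424 gene probes per array were well above background in red on the 4A+ slide, against 14356 to 26604 on the other slides, and in green the number was 16699 to 29100. The arrays labelled cc125 ran against the remaining strains. Over the tested probes their mean ratio had a Pearson r of -0.42 with npq4, -0.34 with 4A+ and -0.49 with cc3491, whereas r was between 0.54 and 0.69 among these 3 strains. The labels state the same dyes for all arrays, so cc125 values are given as labelled and also with the sign turned. In the files of the 4 cc125 arrays the slide number also differed from that in the description of the samples, which it did not in the other 11.

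SLT1 transcript was much higher in starved cells of npq4, 4A+ and cc3491. Probe 1 had ratios of 4.69, 5.50 and 5.10 at 24, 48 and 96 h in npq4, and of 5.66, 5.65, 5.04 and 5.04 at 24, 48, 72 and 96 h in 4A+. In cc3491 they were 2.34, 3.45, 3.82 and 2.76 over the same 4 times. On the 72 h array of cc3491 the red spots of all 3 SLT1 probes and of SLT2 probe 1 were saturated, the only saturated SLT spots, so these ratios and the cc3491 means that hold them are lower bounds. All 11 ratios of probe 1 were positive, and every npq4 and 4A+ array lay above the 3 cc3491 arrays measured without saturation. Probe 1 rose 34.3-fold in npq4 (5.10 ± 0.41, SD, n = 3), 40.8-fold in 4A+ (5.35 ± 0.36, SD, n = 4) and 8.53-fold in cc3491 (3.09 ± 0.67, SD, n = 4), with Holm adjusted p of 0.000342, 3.44e-05 and 0.0198 from limma. The cc3491 call was lost in 9 of the 15 fits that left out 1 array, among them all 4 that left out a cc3491 array, with ratios from 2.85 to 3.34.

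Probes 2 and 3 of SLT1 moved the same way. Probe 3 read 6.21, 5.32 and 4.72 in npq4, 5.36, 5.30, 4.78 and 4.78 in 4A+, and 2.48, 3.51, 3.75 and 2.59 in cc3491, close to probe 1 except at 24 h in npq4. Probe 2 read 4.10, 5.03 and 4.28 in npq4, 3.58, 3.37, 2.89 and 3.14 in 4A+, and 1.83, 3.24, 4.36 and 2.42 in cc3491. With the offset of 50 it gave the lowest mean of the 3 probes in each of these strains, which in npq4 did not hold with the scanner software's ratio. Both probes rose in npq4 (Holm adjusted p 0.00307 for probe 2 and 0.000948 for probe 3) and in 4A+ (0.0223 and 0.000389). In cc3491 they had 2.96 ± 1.09 and 3.08 ± 0.64 (SD, n = 4) with Holm adjusted p of 0.0583 and 0.0999, just past the threshold, while Benjamini-Hochberg adjustment gave 3.96e-05 and 6.00e-05. The call of probe 2 in 4A+ was lost in 8 of the 15 fits without 1 array, at 3.13 to 3.36. As the mean of its 3 probes, SLT1 ranked 3rd from the top among 13465 models in npq4, 7th in 4A+ and, with its saturated array, 18th in cc3491.

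The arrays labelled cc125 gave SLT1 ratios of the opposite sign. Probe 1 read -0.41, -2.90, -2.15 and -1.03 at 24, 48, 72 and 96 h, probe 2 -0.28, -1.69, -2.12 and -0.76, and probe 3 -0.41, -3.34, -1.77 and -0.81. All 12 values were below 0, those of 24 h nearest to it. The means of -1.62 ± 1.11, -1.22 ± 0.84 and -1.58 ± 1.30 (SD, n = 4) were not called under Holm adjustment, while the Benjamini-Hochberg adjusted p was 0.00274, 0.0195 and 0.00774. With the sign turned they would be 1.62, 1.22 and 1.58.

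**Figure D1:**
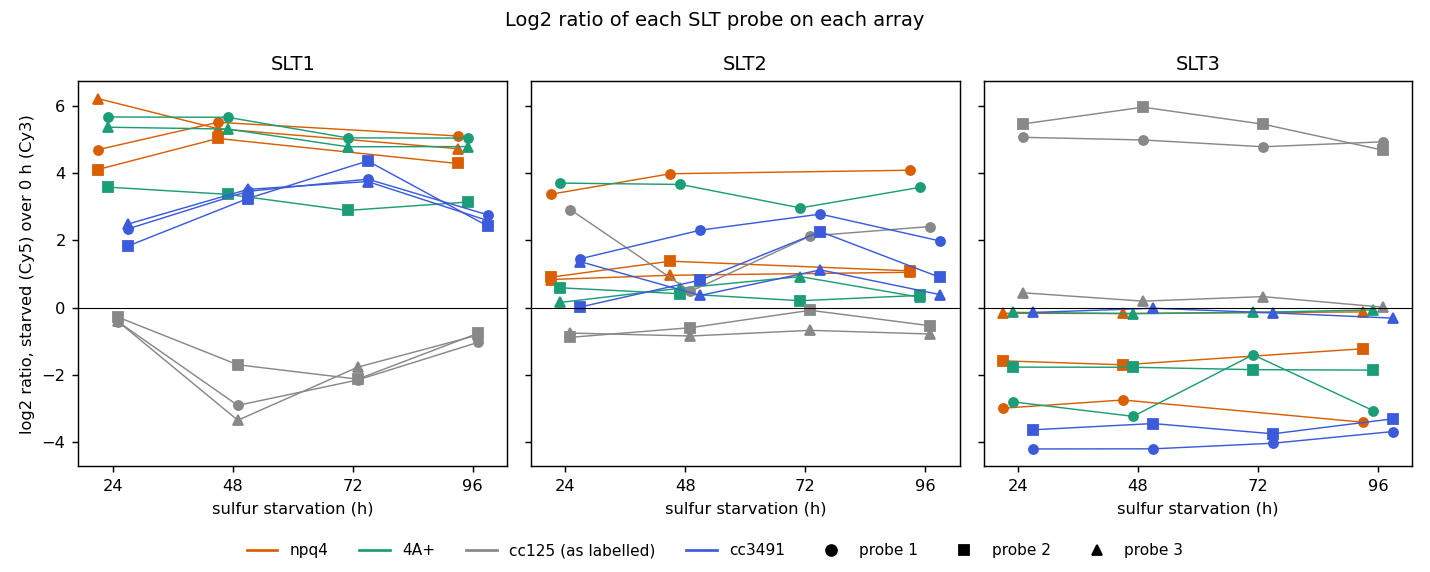
Log2 ratio of starved over 0 h RNA for each SLT probe (marker shape) on each array against hours of sulfur starvation, with strains in colour, points shifted sideways for legibility and cc125 as labelled. SLT1 probes lie between 1.83 and 6.21 in npq4, 4A+ and cc3491 and below 0 in cc125, and probes 1 and 2 of SLT3 show the reverse.

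Of the 3 probes of SLT2, 1 was called under Holm adjustment. Probe 1 had ratios of 3.37, 3.98 and 4.08 in npq4, 3.70, 3.66, 2.96 and 3.58 in 4A+, and 1.45, 2.30, 2.78 and 1.98 in cc3491. Each npq4 and 4A+ array lay above the 3 unsaturated cc3491 arrays, while the lower bound of 2.78 at 72 h leaves no order against the lowest 4A+ value. Probe 1 was 14.0-fold higher in starved npq4 (3.81 ± 0.39, SD, n = 3, Holm adjusted p 0.00391) and 11.1-fold higher in starved 4A+ (3.47 ± 0.35, SD, n = 4, Holm adjusted p 0.00214). In cc3491 its mean of 2.13 ± 0.56 (SD, n = 4) had a Holm adjusted p of 0.423 by limma, while that after Benjamini-Hochberg adjustment was 0.000192. On the cc125 slide probe 1 was positive as well, at 2.91, 0.48, 2.13 and 2.41, with a mean of 1.98 ± 1.05 (SD, n = 4), a Holm adjusted p of 0.859 and 0.000400 after Benjamini-Hochberg adjustment. It is therefore the SLT probe that kept the sign of the other strains on the cc125 arrays as labelled, and turning the sign there would give -1.98.

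Probes 2 and 3 of SLT2 were dim and their ratios small. Probe 2 read 0.90, 1.38 and 1.09 in npq4, 0.59, 0.41, 0.21 and 0.37 in 4A+, -0.88, -0.59, -0.08 and -0.54 in cc125, and 0.02, 0.82, 2.26 and 0.90 in cc3491. Probe 3 read 0.84, 0.96 and 1.05 in npq4, 0.16, 0.58, 0.92 and 0.31 in 4A+, -0.75, -0.84, -0.67 and -0.78 in cc125, and 1.37, 0.37, 1.12 and 0.39 in cc3491. Neither probe was called under Holm adjustment in any strain, and under Benjamini-Hochberg adjustment probe 2 was called in npq4 (1.13 ± 0.24, SD, n = 3, adjusted p 0.0159). Both probes were still positive on every array of npq4, 4A+ and cc3491. Their 95% intervals lay above 0 in npq4 (0.50 to 1.75 and 0.56 to 1.34) and in cc3491 (0.46 to 1.54 and 0.48 to 1.14). In green, probe 2 was well above background on 1 of 3 npq4 arrays and on none of the 4A+ arrays. Its measured mean in 4A+, 1.31-fold higher in starved cells, is therefore a lower bound before sampling error. The 95% interval of that mean was -0.15 to 0.94 on the log2 scale and included no change. Probe 3 was above background in green on 1 of 3 npq4 arrays. In the scanner software's ratio, which has no offset, the npq4 and 4A+ means were 4.16 and 3.82 for probe 2 and 3.14 and 2.62 for probe 3, and all 4 were called. The mean over the 3 probes of SLT2, 1.96 ± 0.22 in npq4 (SD, n = 3), 1.45 ± 0.08 in 4A+ and 1.31 ± 0.50 in cc3491 (SD, n = 4 each), was called in all 3 strains over models (Holm adjusted p 0.00159, 0.00909 and 0.0270 from limma). Leaving out 1 array lost these calls in 2, 4 and 12 of 15 fits, and median centring or normexp fitted on all spots lost all 3. The mean ranked SLT2 95th from the top of 13465 models in npq4, 285th in 4A+ and 391st in cc3491.

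SLT3 went the other way, being lower in starved npq4, 4A+ and cc3491. Probe 1 read -2.98, -2.74 and -3.40 in npq4, -2.80, -3.23, -1.40 and -3.05 in 4A+, and -4.19, -4.19, -4.02 and -3.68 in cc3491. Probe 2 read -1.58, -1.70 and -1.22 in npq4, -1.77, -1.77, -1.84 and -1.85 in 4A+, and -3.63, -3.44, -3.75 and -3.30 in cc3491. Every value was negative, and with the offset of 50 the cc3491 values were the lowest for both probes. This order did not hold with the scanner software's ratio, in which 4A+ read -3.79, -4.61, -1.76 and -4.95 for probe 1 and cc3491 -4.66, -4.65, -4.53 and -4.10, and in which probe 2 was lowest in 4A+ on average (-5.32). The fall of probe 1 was 8.24-fold in npq4 (-3.04 ± 0.33, SD, n = 3, Holm adjusted p 0.00121), 6.14-fold in 4A+ (-2.62 ± 0.83, SD, n = 4, 0.00128) and 16.2-fold in cc3491 (-4.02 ± 0.24, SD, n = 4, 7.67e-06).

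Probe 2 of SLT3 fell in npq4 (-1.50 ± 0.25, SD, n = 3, Holm adjusted p 0.0346 from limma), where red was well above background on 1 of 3 arrays and the size of the fall is therefore not settled, with -3.76 in the scanner software's ratio. It fell 11.5-fold in cc3491 (-3.53 ± 0.20, SD, n = 4, 2.45e-07). In 4A+ its red signal did not clear the background limit on any of the 4 arrays, so the mean of -1.81 ± 0.05 (SD, n = 4, Holm adjusted p 0.000803) stands for a level at least 3.50-fold lower in starved cells. The npq4 call was lost in 13 of the 15 fits without 1 array, at -1.64 to -1.40. Probe 3 of SLT3 was dim in both channels, and its ratios were between -0.31 and -0.02 in these strains with no call. The mean over probes placed SLT3 220th from the bottom of 13465 models in npq4, 299th in 4A+ and 29th in cc3491.

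Probes 1 and 2 of SLT3 were strongly positive on the arrays labelled cc125, at 5.06, 4.98, 4.78 and 4.93 for probe 1 and 5.46, 5.95, 5.45 and 4.68 for probe 2. The means of 4.94 ± 0.12 and 5.38 ± 0.53 (SD, n = 4) had Holm adjusted p of 6.23e-07 and 1.26e-09, and with the sign turned they would be -4.94 and -5.38. In the order of model means SLT3 stood 6th from the top there as labelled, and 6th from the bottom with the sign turned. Probe 3 read 0.44, 0.19, 0.33 and 0.01 and was not called.

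Counted over the 9 probes, 6 were called in npq4, 4 higher and 2 lower, where 1.51% of all tested probes were called (0.44% higher and 1.07% lower). The same 6 were called in 4A+, where the share of all tested probes was 2.82% (0.926% higher and 1.9% lower). They were the 3 probes of SLT1, probe 1 of SLT2, and probes 1 and 2 of SLT3. In cc3491 the count was 3, with probe 1 of SLT1 higher and probes 1 and 2 of SLT3 lower, against 3.31% of all tested probes (1.08% higher and 2.24% lower). The arrays labelled cc125 had 2 calls, both SLT3 and both higher as labelled, against 2.71% (2.08% higher and 0.624% lower). Under Benjamini-Hochberg adjustment the counts were 7 in npq4, 6 in 4A+, 6 in cc125 and 6 in cc3491, with 9.08%, 9.99%, 11.7% and 11.5% of all tested probes. The median over all tested probes was within 0.01 of 0 in each strain.

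The channels showed on which side the ratios were made. Levels are log2 values after normalization between arrays, and they compare a probe between strains but not one probe with another. For signals near background they do not order the strains either. SLT3 probe 2 in starved RNA had 7.62 in 4A+, where red was above background on none of the arrays. In cc3491, where it was above background on all 4, the level was 5.97. For SLT1 probe 1 the starved level was 13.44 ± 0.53 in npq4 (SD, n = 3), 12.97 ± 0.48 in 4A+ and 13.48 ± 0.62 in cc3491 (SD, n = 4 each), with overlapping ranges, and 9.28 ± 0.07 on the cc125 arrays, below all of them. The top of the cc3491 range is its saturated 72 h spot, so that starved level is understated. Its 0 h level was 8.35 ± 0.24 in npq4, 7.62 ± 0.16 in 4A+ and 10.39 ± 0.15 in cc3491. The 0 h arrays of npq4 thus lay 2.04 and those of 4A+ 2.77 below cc3491 on average, with gaps of 1.66 and 2.37 between the nearest arrays. Since this 0 h RNA was 1 sample per strain, its spread is technical, and the difference was not tested. The net 0 h signal of this probe in 4A+ was 29 to 76.5 intensity units, around the offset, so the size of that difference is not settled.

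Probes 2 and 3 of SLT1 and probe 1 of SLT2 had the same order at 0 h, with npq4 and 4A+ below cc3491. The 0 h differences between npq4 and cc3491 were -2.80 and -1.99 for the SLT1 probes and -2.23 for SLT2 probe 1, and those between 4A+ and cc3491 were -2.67, -2.51 and -2.81. In 4A+ the net 0 h signals of these probes were 9.5 to 16.5, 44.5 to 75 and 54.5 to 106.5 intensity units, under or not far above the offset. In npq4 that of SLT1 probe 2 was 47 to 63. The size of these differences is therefore not settled. The starved level of SLT1 probe 2 was lower as well, at 11.41 ± 0.54 in npq4 (SD, n = 3) and 10.31 ± 0.32 in 4A+, against 12.70 ± 1.03 in cc3491 (SD, n = 4 each), with differences from cc3491 of -1.30 and -2.39 and no overlap of 4A+ with cc3491. Ranked against all tested probes on the same array, SLT1 probe 1 stood at 0 h on average at the 80.4th percentile in npq4, the 74.6th in 4A+ and the 90.6th in cc3491, and in starved RNA at the 98.0th, 97.2nd and 97.8th. Starved levels of SLT2 probe 1 were 12.45 ± 0.63 in npq4, 11.54 ± 0.48 in 4A+, 11.74 ± 0.09 in cc125 and 13.00 ± 0.86 in cc3491. In cc3491 the starved levels of the SLT1 probes and SLT2 probe 1 hold a saturated 72 h spot and are understated.

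SLT3 differed from SLT1 in this respect. At 0 h its probe 1 had 11.43 ± 0.02 in npq4, 11.78 ± 0.15 in 4A+ and 10.75 ± 0.05 in cc3491, so that here npq4 and 4A+ were the higher ones, by 0.68 and 1.03. In starved RNA it had 8.39 ± 0.33 in npq4, 9.16 ± 0.82 in 4A+ and 6.73 ± 0.25 in cc3491. These normalized levels were lowest in cc3491. The net starved signal of this probe was 25 to 310 intensity units in 4A+, in part below the offset. It was 115 to 447 in npq4 and 125 to 414.5 in cc3491. The order of 4A+ and cc3491 in starved RNA is therefore not settled. Probe 2 at 0 h was lower in npq4 (7.65 ± 0.31) than in 4A+ (9.42 ± 0.04) and cc3491 (9.50 ± 0.06), and the ranges of 4A+ and cc3491 overlapped.

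On the cc125 arrays the varying channel was green. SLT1 probe 1 ranged from 9.77 to 12.14 in green, labelled 0 h, and from 9.19 to 9.35 in red, labelled starved. In cc3491 the same probe ranged from 10.21 to 10.55 in green and from 12.81 to 14.02 in red. SLT2 probe 1 showed this too, with 8.94 to 11.17 in green and 11.65 to 11.85 in red on the cc125 arrays. Over the 7566 gene probes detected in both channels on all arrays, the green level had a median SD between arrays of 0.706 in cc125, against 0.0948 in npq4, 0.0740 in 4A+ and 0.121 in cc3491. For the red level it was 0.121 in cc125, against 0.439, 0.384 and 0.501 in the same 3 strains. For SLT3 probe 1 both cc125 channels were steady, at 8.49 to 8.67 in green and 13.45 to 13.56 in red.

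**Figure D2:**
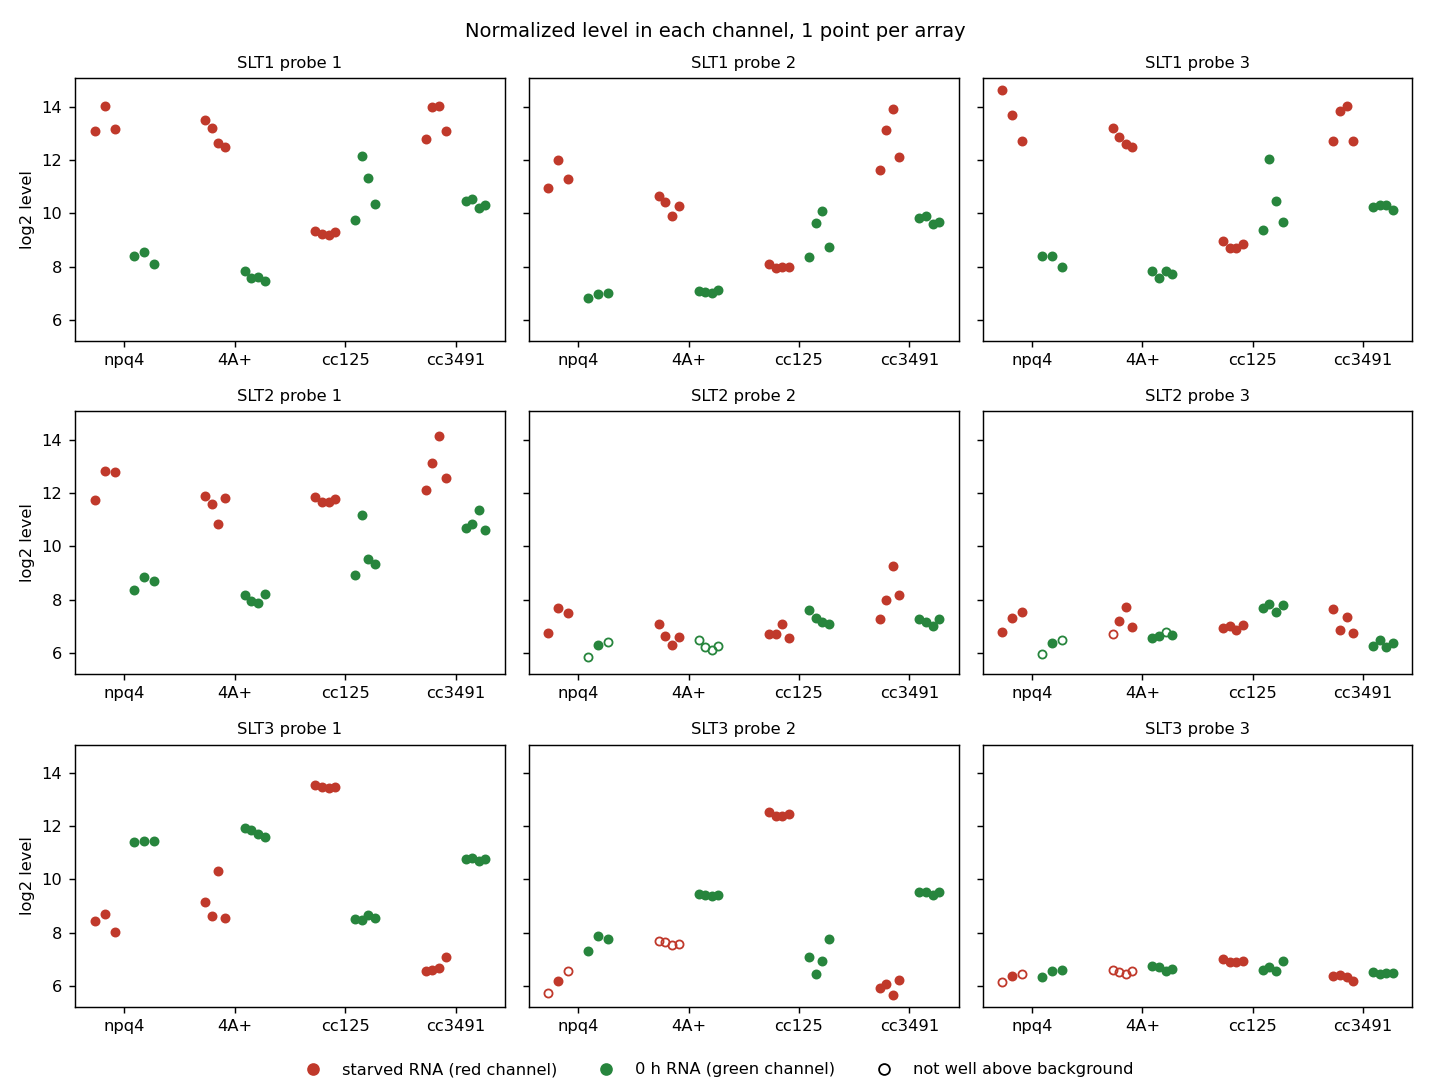
Normalized log2 level of each SLT probe on each array, with starved RNA (red channel) left of 0 h RNA (green channel) within a strain and arrays in time order. Open circles mark values not well above background, as for SLT3 probe 2 in starved 4A+, and the 0 h level of SLT1 lies lower in npq4 and 4A+ than in cc3491.

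Whether the loss of LHCSR3 altered the response of the transporters was asked by setting npq4 against its control strain 4A+. Of the 9 probes limma called 0 by either adjustment, against 0.751% of all tested probes under Holm adjustment and 4.71% under Benjamini-Hochberg, and 1 of the 9 had an unadjusted p under 0.05. That probe was SLT1 probe 2, at 4.47 ± 0.49 in npq4 (SD, n = 3) and 3.24 ± 0.30 in 4A+ (SD, n = 4), a difference of 1.23 (95% interval 0.04 to 2.42, Benjamini-Hochberg adjusted p 0.237). Its sign changed with the scanner software's ratio, at -0.60, and with an offset of 0, at -0.10. Differences were -0.25 (95% interval -1.37 to 0.87) for SLT1 probe 1 and 0.36 (-0.94 to 1.66) for SLT1 probe 3. For SLT2 they were 0.33 (-0.70 to 1.37), 0.73 (-0.09 to 1.56) and 0.46 (-0.05 to 0.97) on probes 1, 2 and 3. SLT3 had -0.42 (-1.17 to 0.32), 0.31 (-0.19 to 0.80) and -0.02 (-0.23 to 0.18). The intervals of 6 probes, the 3 of SLT1, probes 1 and 2 of SLT2 and probe 1 of SLT3, reach past 1 in size, so a 2-fold difference in these was within the error. SLT2 probe 3 and SLT3 probes 2 and 3 had dim signals, on which the offset shrinks ratios, so their narrower intervals do not exclude a 2-fold difference. With the scanner software's ratio SLT3 probe 2 averaged -3.76 in npq4 and -5.32 in 4A+.

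Between npq4 and cc3491 1 probe was called under Holm adjustment, where 0.387% of all tested probes were called. SLT3 probe 2 averaged -1.50 ± 0.25 in npq4 (SD, n = 3) and -3.53 ± 0.20 in cc3491 (SD, n = 4), a fitted difference of 2.03 (95% interval 1.54 to 2.52, Holm adjusted p 0.0268). Red was well above background on 1 of the 3 npq4 arrays, so the size of this difference is not settled. With the scanner software's ratio that difference was 0.61 and with an offset of 0 it was 1.28, both not called, and it was lost in 13 of the 15 fits without 1 array. Benjamini-Hochberg adjustment added SLT1 probes 1 and 3 and SLT2 probe 1, higher in npq4 by 2.01 (adjusted p 0.0325), 2.33 (0.0319) and 1.68 (0.0479), where 3.32% of all tested probes were called. For these 3 probes each npq4 array lay above the 3 unsaturated cc3491 arrays. The saturated cc3491 array raises these differences, while the offset lowers ratios on dim 0 h signals. The scanner software's ratio gave 2.58, 2.26 and 2.10, so the size of the differences is not settled.

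4A+ and cc3491 gave no call of a single probe under Holm adjustment, 5 probes at an unadjusted p under 0.05 and 4 calls under Benjamini-Hochberg adjustment, against 1.47% and 8.45% of all tested probes. Those 4 were SLT1 probe 1 (2.26, 95% interval 1.22 to 3.30, Benjamini-Hochberg adjusted p 0.00544), SLT1 probe 3 (1.97, 0.77 to 3.18, 0.0260), SLT3 probe 1 (1.40, 0.71 to 2.09, 0.00818) and SLT3 probe 2 (1.72, 1.26 to 2.18, 0.000114). All 4 fitted differences were positive. For SLT1 the saturated cc3491 array raises them, while the offset lowers the 4A+ ratios on dim 0 h signals. The scanner software's ratio gave 3.72 for SLT1 probe 1, which was then called under Holm adjustment, and 3.37 for probe 3, which was not. The size of the SLT1 differences is therefore not settled. For SLT3 the direction is not settled, since probe 2 was below the background limit in starved 4A+ and the scanner software's ratio turned its difference to -0.94, and since the arrays of probe 1 overlapped in that ratio. As the mean of 3 probes, SLT3 differed by 1.05 (Holm adjusted p 0.0340 over models, of which 1.5% were called). That call was lost in 13 of the 15 fits without 1 array, and the scanner software's ratio gave -0.33.

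**Figure D3:**
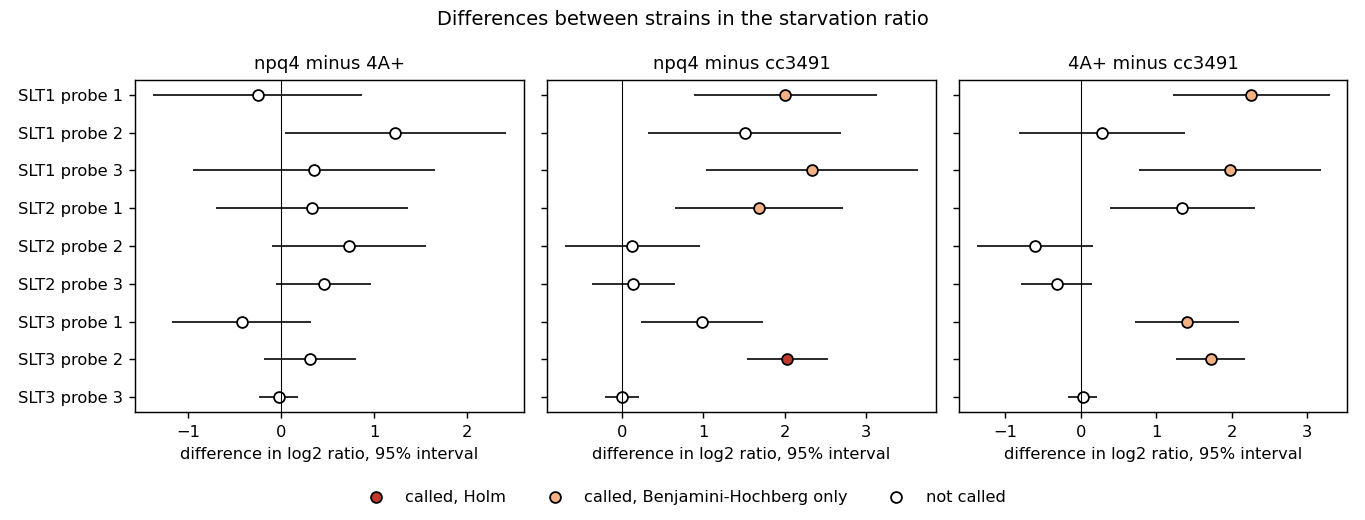
Difference in log2 ratio between strains for each SLT probe (points) with its 95% interval from limma (lines), filled by whether it was called. Against 4A+ no npq4 probe was called, and against cc3491 the SLT1 probes 1 and 3 and SLT3 probe 2 lie above 0 in both npq4 and 4A+, the last of these on a probe that was dim in starved npq4 and 4A+.

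For cc125 and cc3491 the difference was called for 4 probes under Holm adjustment and 7 under Benjamini-Hochberg adjustment, against 5.44% and 20.4% of all tested probes. By Holm adjustment 2 of the 4 were higher and 2 lower, as were 4.17% and 1.26% of all tested probes. As labelled, SLT1 probes 1 and 3 were lower on the cc125 arrays, with log2 differences of -4.72 and -4.66 (Holm adjusted p 0.00850 and 0.0480), and SLT3 probes 1 and 2 were higher, with 8.96 and 8.91 (2.82e-08 and 1.74e-10). The call of SLT1 probe 3 was lost in 13 of the 15 fits without 1 array, at -5.06 to -4.08. With the sign of cc125 turned, the SLT3 differences were -0.91 and -1.86, and that of probe 2 passed the Holm threshold at an adjusted p of 0.0303. SLT2 probe 1 differed by -0.15 as labelled (95% interval -1.10 to 0.81), and by -4.11 with the sign turned (-5.07 to -3.16, Holm adjusted p 0.0162).

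No linear change of an SLT ratio with the length of starvation was found. A slope shared by npq4, 4A+ and cc3491 was called by limma for 0 of 9 probes by either adjustment, against 0.00312% of all tested probes, and 0 of the 9 had an unadjusted p under 0.05. The estimates were between -0.21 and 0.12 per 24 h, with 95% intervals that together ran from -0.68 to 0.49. A shared slope can miss a rise and fall or trends that oppose each other between strains, and saturated 72 h values of cc3491 entered it. At 24, 48, 72 and 96 h SLT1 probe 1 read 2.34, 3.45, 3.82 and 2.76 in cc3491. In 4A+ it read 5.66, 5.65, 5.04 and 5.04. On the cc125 arrays 0 of 9 slopes were called (0% of all tested), and 2 had an unadjusted p under 0.05, SLT3 probe 2 at -0.28 per 24 h (unadjusted p 0.0291) and probe 3 at -0.12 (0.0433).

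The size of these ratios depended on how the background was treated. The scanner software's ratio, which subtracts background without an offset, gave SLT1 probe 1 means of 5.62 in npq4, 6.76 in 4A+ and 3.04 in cc3491, where the offset of 50 gave 5.10, 5.35 and 3.09. In cc3491 the treatments were nearly alike for this probe, and in 4A+ they were furthest apart. The net 0 h signal of SLT1 probe 1 was 29 to 76.5 intensity units on the 4A+ arrays, 137 to 262 on the npq4 arrays and 3366 to 4034 on the cc3491 arrays. For SLT1 probe 2 it was 9.5 to 16.5 in 4A+, well under the offset, and the mean was 6.35 with the scanner software's ratio against 3.24. SLT3 probe 2 gave -3.76 in npq4, -5.32 in 4A+ and -4.38 in cc3491 with the scanner software's ratio, so that the order of the strains changed with the treatment.

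**Figure D4:**
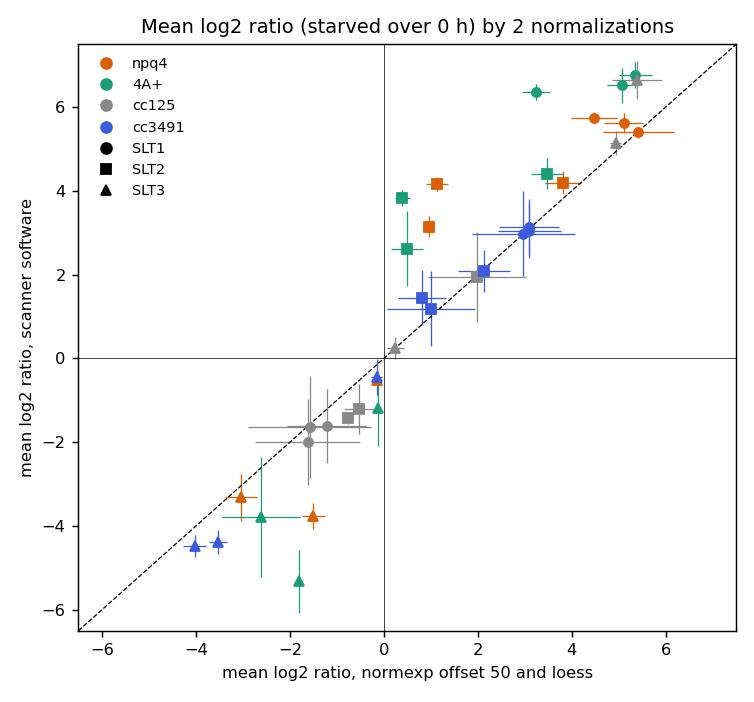
Mean log2 ratio of each SLT probe in each strain with the offset of 50 and loess (x axis) against the scanner software's own ratio (y axis), with lines for the SD over arrays and a dashed line of equality. SLT2 probes 2 and 3 and SLT3 probe 2 in 4A+ and npq4, and SLT1 probe 2 in 4A+, lie farthest from the line, while cc3491 lies near it.

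The 3 probes of a gene did not follow the array-to-array changes equally. Across the 11 arrays of npq4, 4A+ and cc3491, Pearson r was 0.61, 0.90 and 0.64 for the probe pairs 1 and 2, 1 and 3, and 2 and 3 of SLT1. It was 0.70 for probes 1 and 2 of SLT3 and between -0.07 and 0.06 for the pairs with its probe 3, and between -0.18 and 0.21 for SLT2. The means of SLT1 and SLT2 had r of 0.75, those of SLT1 and SLT3 0.78, and those of SLT2 and SLT3 0.36. These are descriptions over arrays that share a strain's 0 h RNA and slide.

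Among 11036 other models with at least 2 tested probes, the ones most like SLT1 over the 11 arrays were models 171607, 189529 and 195272, with r of 0.97, 0.95 and 0.95. For SLT2 they were 186624, 119317 and 142227 (0.94 each), and for SLT3 186221, 189271 and 128726 (0.97, 0.96 and 0.96). Over all 15 arrays, with cc125 as labelled, r was -0.16, -0.21 and -0.19 for the SLT1 models and 0.24, -0.12 and 0.15 for those of SLT2. It was 0.74, 0.89 and 0.78 for those of SLT3. None of these 9 has a symbol in the study's tables. Their own means were mostly small, with -0.41 in cc3491, 0.03 in 4A+ and 0.05 in npq4 for model 171607, whereas model 189271 had -0.60 in npq4, -0.35 in 4A+ and -2.01 in cc3491, where SLT3 was lowest as well.

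A list of other genes of sulfur supply, taken from the study's tables, was set beside the transporters. Of its 17 models, all of them tested, 7 were higher and 1 lower in starved npq4 under Holm adjustment, 8 higher and 1 lower in 4A+, and 10 higher and 1 lower in cc3491. Over all 13465 models 1.88%, 3.27% and 3.34% were called. The list's median ratio was 1.41 in npq4, 0.86 in 4A+ and 1.82 in cc3491, against 0.01, -0.01 and 0.01 over all models. SLT1 lay above every model of the list in npq4 and 4A+. In cc3491 the secreted arylsulfatase ARS1 had 3.60 and the cell wall protein ECP76 3.65, and SLT1 had 3.05 as a lower bound. The study drew its tables from these same arrays, so the counts of the list are not independent evidence.

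ARS1, the cell wall proteins ECP76 and ECP88, SUOX1 (sulfite oxidase) and SQD1, an enzyme of sulfolipid synthesis, rose in npq4, 4A+ and cc3491, with Holm adjusted p of 0.0277 or less from limma. ARS5, a further arylsulfatase, fell in all 3 strains, by 1.50 in npq4, 1.95 in 4A+ and 1.57 in cc3491 on the log2 scale, and so shared its direction with SLT3. ATS2, an ATP sulfurylase, rose in npq4 (2.43) and cc3491 (2.80) and had 0.79 in 4A+ with no call. On the arrays labelled cc125, 4 of the 17 models were lower as labelled and 0 higher, against 2.75% of all models, and the list's median was -0.56. With the sign turned, 4 were higher and 0 lower, with a median of 0.56. Between npq4 and 4A+ 1 model of the list was called, CDO1 (cysteine dioxygenase), with 3.45 in npq4 and -1.17 in 4A+, against 0.951% of all models.

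**Figure D5:**
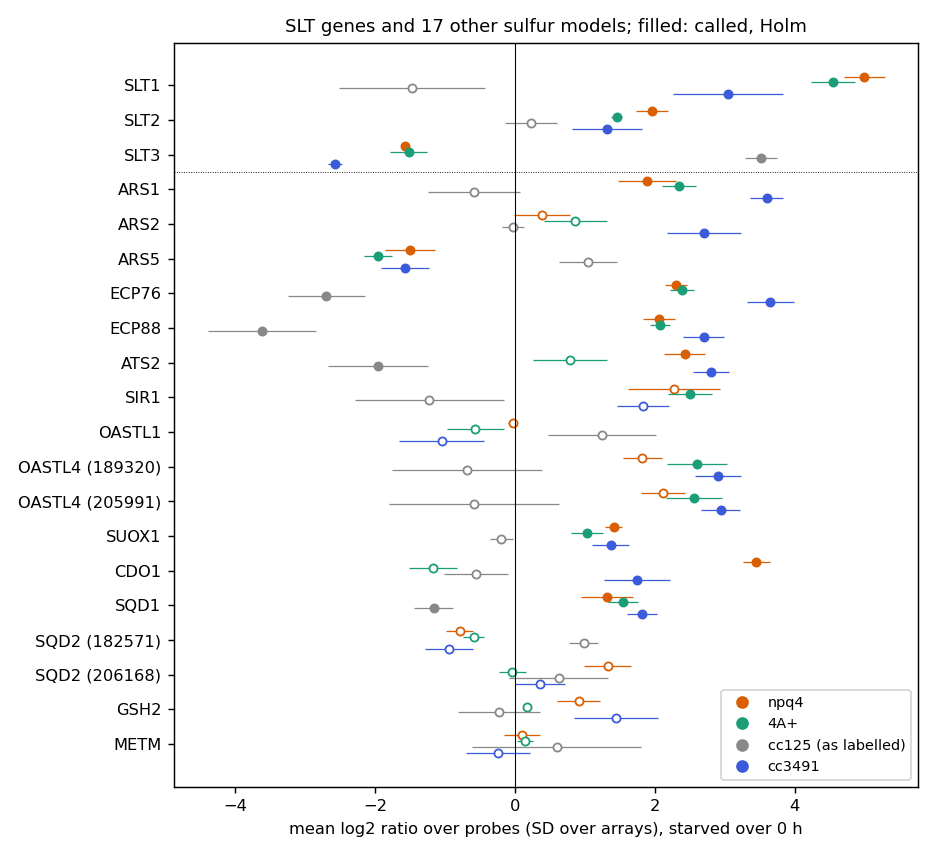
Mean log2 ratio over probes, with the SD over arrays, of SLT1, SLT2 and SLT3 (above the dotted line) and of the 17 other sulfur models in each strain. Filled points were called under Holm adjustment, and SLT3 and ARS5 lie left of 0 in npq4, 4A+ and cc3491 while most of the others lie right of it.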

How the data were processed

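RNA of sulfur-starved and 0 h cells was hybridised on 15 two-colour Agilent arrays with 45218 spots each, whose sequences follow the JGI gene models. The authors scanned them with Feature Extraction 10.7.3.1 (submitters' processing notes), and the deposited files hold the median signal and local background of each channel as intensity values, the software's log10 ratio of red over green, and marks for outliers, saturation and signal above background. The series table deposited with them held the same log10 ratio (largest difference 0), so it was not analysed separately.

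Background was corrected with normexp (offset 50), estimating its parameters from unmarked spots whose net signal exceeded -100, and ratios were normalized by loess within arrays in limma 3.58.1 under R 4.3.3. Channel levels were made comparable between arrays with Aquantile. Control spots and outlier marks had no weight. A probe was kept if 3 or more arrays showed it above background in red or green (32076 of 43687), and for models the tested probes were averaged (13465 of 14557). A linear model with 1 mean per strain was fitted over all 15 arrays. Calls needed a Holm adjusted p below 0.05 and a 2-fold change, the rule of the study, and Benjamini-Hochberg adjustment was an alternative. A second model held a slope per 24 h, shared by npq4, 4A+ and cc3491 with a separate one for cc125. Bounds for dim probes set the bright channel's mean against the dim channel's, or, where higher, the lowest detected level of that array. They hold no sampling error.

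All 9 SLT probes are reported whatever their values, sulfur genes are counted over the whole list, and for each SLT model the 3 others with the highest Pearson r over 11 arrays are named. The members and lists were chosen with earlier results of these data known. On simulated data with 200 changed probes among 32076, the model recovered 178 in cc3491, 171 in cc125, 180 in 4A+, 167 in npq4 and 150 in the difference between npq4 and 4A+, with 0 false calls. The planted changes were all well past the 2-fold limit, and the noise was independent between arrays. Changes near 2-fold and error shared by the arrays of a strain were therefore not simulated. The number of arrays, 3 or 4 per strain, limits the precision. Alternatives covered background, normalization, filter, adjustment, arrays in the fit, a block for time points, each array left out and the sign of cc125, and those for model means and the sulfur list were added after seeing the data.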

Additional observations from a re-analysis of the deposited data

Results flagged for a closer look

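The 72 h array of 4A+ stood apart for SLT2 probe 1, with a ratio of 2.96, while the nearest of the other 3 arrays had 3.58. Of 27 groups of 4 arrays tested for such a gap this was the 1 that passed, and chance alone gives about 1 in 20.

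Differences between strains under the same contrast passed the Holm threshold of limma for 5 pairs of probe and strain. The fitted difference of SLT3 probe 2 between npq4 and cc3491 was 2.03 on the log2 scale, but red was above background on 1 of 3 npq4 arrays, the scanner software's ratio gave 0.61, and the call was lost in 13 of 15 fits without 1 array. As labelled, the cc125 ratio minus the cc3491 ratio was -4.72 for SLT1 probe 1, -4.66 for SLT1 probe 3, 8.96 for SLT3 probe 1 and 8.91 for SLT3 probe 2. These last 4 rest on the labelled direction of the cc125 arrays, which correlated with those of the other strains between -0.49 and -0.34, and their cause was not tested.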

How the results depend on the processing

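The number of SLT probes called moved with the following choices, and the cause was not tested unless the choice itself uses fewer arrays or probes. With an offset of 0 or with the scanner software's ratio it was 5 in cc3491 (main value 3), 0 for npq4 minus cc3491 (main value 1) and 1 for 4A+ minus cc3491 (main value 0). Normexp fitted on all spots gave 3 in npq4 (main value 6) and 0 for npq4 minus cc3491. With only probes detected in both channels on all arrays the counts were 5 in cc3491, 1 in cc125 (main value 2) and 0 for npq4 minus cc3491. Median centring gave 2 for cc125 minus cc3491 (main value 4). Benjamini-Hochberg adjustment gave 6 in cc125, 6 in cc3491, 4 for npq4 minus cc3491, 4 for 4A+ minus cc3491 and 7 for cc125 minus cc3491. Fits on only the strains compared, with fewer arrays, gave 0 in npq4, 3 in 4A+ (main value 6), 1 in cc125, 0 for npq4 minus cc3491, 1 for 4A+ minus cc3491 and 2 for cc125 minus cc3491. For npq4 minus 4A+ and for the shared slope the count was 0 under every alternative run.

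Leaving out each array in turn gave 3 to 6 in npq4, 5 to 6 in 4A+, 2 to 3 in cc125 and 2 to 5 in cc3491, and 0 to 1 for npq4 minus cc3491, 0 to 1 for 4A+ minus cc3491 and 2 to 4 for cc125 minus cc3491. It was 3 in npq4 without npq4 at 48 h or 96 h, and 5 in cc3491 without cc125 at 48 h. For cc125 minus cc3491 it was 2 without cc3491 at 48 h or 72 h or cc125 at 72 h. For npq4 minus cc3491 it was 0 in 13 of 15 fits, and for 4A+ minus cc3491 it was 1 without cc125 at 48 h or 96 h.

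Arrays of different strains at the same time point did not deviate together (21 pairs, r between -0.30 and 0.24), so time points do not pair the arrays. With the time point as a block the counts were 3 in npq4, 0 for npq4 minus cc3491 and 2 for cc125 minus cc3491.

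With the sign of cc125 turned, its ratios became 1.62, 1.22 and 1.58 for SLT1 probes 1 to 3, -1.98, 0.52 and 0.76 for SLT2 and -4.94, -5.38 and -0.24 for SLT3, with model means of 1.47, -0.23 and -3.52. Against cc3491 the SLT3 probes then differed by -0.91, -1.86 and -0.089 and their mean by -0.95. The 2 SLT probes then called were SLT3 probe 2 and SLT2 probe 1 (-4.11). The scanner software's ratio turned the sign of SLT1 probe 2 for npq4 minus 4A+ (-0.60, and -0.10 with an offset of 0), of SLT3 probe 2 for 4A+ minus cc3491 (-0.94), of the SLT3 mean there (-0.33) and of the SLT2 mean in cc125 (-0.23). That ratio lowered the median of all probes by 0.20 in 4A+ (-0.20), and relative to it the SLT ratios of 4A+ are correspondingly higher. Of the 17 sulfur models, 8 were called in npq4, 9 in 4A+, 4 in cc125 and 11 in cc3491, and fits on 1 strain only gave 0, 2, 0 and 2. Counts also moved to 3 in npq4 (normexp on all spots, or the block), 5 in 4A+ (median centring), 2 in cc125 (the block) and 7 in cc125 (Benjamini-Hochberg), and without 1 array they were 3 to 10 in npq4, 4 to 9 in 4A+, 2 to 4 in cc125 and 7 to 12 in cc3491. For npq4 minus 4A+ the 1 call became 2 with median centring and 3 with Benjamini-Hochberg adjustment.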
